A study of Mus musculus with 28 samples.

Results

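Acinar cells of the exocrine pancreas make, store and secrete the digestive enzymes of the gut, and the RNA of 36 genes of that program was followed here through RNA-seq libraries of pancreatic macrophages. The genes were chosen by symbol and encode zymogens, lipases, granule proteins, the trypsin inhibitor of the granule, chaperones of the secretory route and acinar transcription factors. Of the 36, 35 were measured among the 25301 genes of the deposited table, and Ctrc was not used here. A filter on low values, set at 1 FPKM or more in 3 or more libraries, was passed by 34 of them. The exception was the elastase gene Cela3a, which reached 0.501 FPKM at most. FPKM are fragments scaled to gene length and to the mapped fragments of the library, so levels of different genes can be set side by side.

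The libraries were made from macrophages sorted by flow cytometry from the pancreas of wild-type (WT) C57BL/6J mice, in a caerulein model of acute pancreatitis (AP) and its recovery. There were 28 of them: 3 labelled NC, 5 labelled D0 for day 0, 6 each labelled D1 AP+Lac and D1 AP+PBS for day 1, and 4 each labelled D3 AP+Lac and D3 AP+PBS for day 3. Each library held 33273303 to 41060490 fragments. All groups share the genotype and strain, and Lac stands for lactate per the series title. The labels do not say what NC stands for or whether those mice received caerulein. They do not give the dose of lactate, the age of the mice or whether each library came from its own animal, so the p-values measure only the spread between these libraries. Caerulein is a peptide that drives the acinar cell's own secretion receptor and, in excess, starts pancreatitis.

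As background, an acinar cell keeps its proteases as inactive zymogens in apical granules and releases them on stimulation. Trypsin, cut from trypsinogen, activates the other zymogens, and the inhibitor Spink1 holds back trypsin that appears too early. The transcription factor complex PTF1, built from Ptf1a, Rbpjl and an E-protein partner, binds promoters of these enzyme genes at an E-box beside a TGGGAA-type element, while Bhlha15 (Mist1) scales up the secretory machinery. A loss of enzyme RNA is a known feature of acinar cells in caerulein pancreatitis.

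Promoter sequences are shown for the 5 genes on which the results below turn: Ctrb1 (chymotrypsinogen B), which led the acinar RNA in every group; the lipase gene Pnlip and its relative Pnliprp1, which lie close together on chromosome 19 and whose ratio changed; and the trypsinogens Prss1 and Prss3b. They are the 250 bases before each start site in RefSeq, build GRCm38.p6, written 5′ to 3′ on the strand of the gene. Capitals mark CANNTG (the E-box) and TGGGAA or its reverse complement TTCCCA, and both strands were searched. The windows are chr8:111691011-111691260 on the minus strand for Ctrb1, chr19:58670115-58670364 on the plus strand for Pnlip, chr19:58728637-58728886 on the plus strand for Pnliprp1, chr6:41458680-41458929 on the plus strand for Prss1, and chr6:41035510-41035759 on the minus strand for Prss3b.
Ctrb1: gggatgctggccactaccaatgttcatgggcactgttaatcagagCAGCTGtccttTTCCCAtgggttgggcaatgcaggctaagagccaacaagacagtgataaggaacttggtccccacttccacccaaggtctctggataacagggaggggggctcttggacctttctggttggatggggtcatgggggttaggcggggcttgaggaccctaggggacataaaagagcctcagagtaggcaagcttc
Pnlip: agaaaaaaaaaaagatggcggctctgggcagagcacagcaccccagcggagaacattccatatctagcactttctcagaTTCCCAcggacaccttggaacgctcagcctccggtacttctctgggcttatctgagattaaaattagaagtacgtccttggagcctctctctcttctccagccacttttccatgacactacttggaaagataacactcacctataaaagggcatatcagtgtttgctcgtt
Pnliprp1: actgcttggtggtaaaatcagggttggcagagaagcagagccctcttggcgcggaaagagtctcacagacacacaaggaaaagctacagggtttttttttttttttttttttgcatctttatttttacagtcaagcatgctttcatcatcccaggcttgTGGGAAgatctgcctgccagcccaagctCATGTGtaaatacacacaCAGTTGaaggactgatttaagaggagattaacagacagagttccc
Prss1: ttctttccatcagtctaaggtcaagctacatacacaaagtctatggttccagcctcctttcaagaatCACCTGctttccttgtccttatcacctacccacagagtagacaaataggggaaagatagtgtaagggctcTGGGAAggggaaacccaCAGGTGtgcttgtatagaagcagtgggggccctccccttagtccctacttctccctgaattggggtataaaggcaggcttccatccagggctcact
Prss3b: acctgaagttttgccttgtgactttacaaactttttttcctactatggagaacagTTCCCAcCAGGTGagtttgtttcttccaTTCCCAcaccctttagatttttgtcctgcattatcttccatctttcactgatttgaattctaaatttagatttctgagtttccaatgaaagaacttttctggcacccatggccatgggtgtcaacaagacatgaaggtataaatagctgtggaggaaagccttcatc

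Of the 35 measured genes, 28 had an entry in the RefSeq promoter table. CANNTG was found in 23 of the 28 windows (82.1%), against 69.3% of 27025 genes with windows of the same length. Each of the 27025 genes was counted if any of its windows matched. TGGGAA on either strand was found in 18 of 28 (64.3%), against 24.1% of those genes. Both lay within 30 bases of each other in 11 of 28 (39.3%), against 6.58% of those genes. A TATAAA at 50 to 21 bases before the start was found in 8 of 28 (28.6%), against 2.63%. Ctrb1, Pnliprp1, Prss1 and Prss3b held the pair, with 5, 22, 11 and 1 bases between its parts. The Pnlip window held TGGGAA and no CANNTG. A match describes letters in these windows, not a bound site.

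Macrophage markers were high throughout: 12 of 12 were measured, and their summed FPKM ran from 7613 to 20985 over the 28 libraries. The 9 duct markers summed to 6.68 to 55.9 FPKM, and the 8 islet markers to at most 5.77 FPKM in 27 of the libraries. D3 AP+PBS library 2 stood apart. It held 28137 FPKM of acinar RNA, against 3703 to 8738.5 in the other 3 libraries of its group, together with 59.8 FPKM of islet RNA (Ins2 29.9 and Ins1 19.2), and the counts and medians of the comparisons with D3 AP+PBS and its mean FPKM below are given with and without it. D1 AP+Lac library 4 held 5524 FPKM of acinar RNA, against 1712 to 2806 in the other 5, and D1 AP+PBS libraries 5 and 6 held 1405 and 1184 FPKM, against 4919 to 6336 in the other 4. In these bulk libraries fewer acinar cells and less acinar RNA per cell cannot be told apart, and the values do not show in which cell a fragment originated.

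Summed over the 35 genes, acinar RNA made up 2.01% to 3.17% of all FPKM in NC, 0.12% to 0.228% in D0, 0.405% to 1.37% in D1 AP+Lac, 0.27% to 1.52% in D1 AP+PBS, 0.225% to 1.82% in D3 AP+Lac and 0.937% to 6.11% in D3 AP+PBS. The sums were 12839, 8585 and 8062 FPKM in NC, 971, 701, 625.4, 715 and 501 in D0, 844, 4021, 2273 and 7279 in D3 AP+Lac, and 3703, 28137, 8738.5 and 7845 in D3 AP+PBS. At day 1 the lowest, median and highest were 1712, 2245 and 5524 FPKM in D1 AP+Lac and 1184, 5426 and 6336 FPKM in D1 AP+PBS. All D0 libraries lay below all others except D3 AP+Lac library 1, which held 844 FPKM. The NC libraries lay above all day 1 libraries, and the D3 AP+PBS libraries spread across the NC range.

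**Figure D1:**
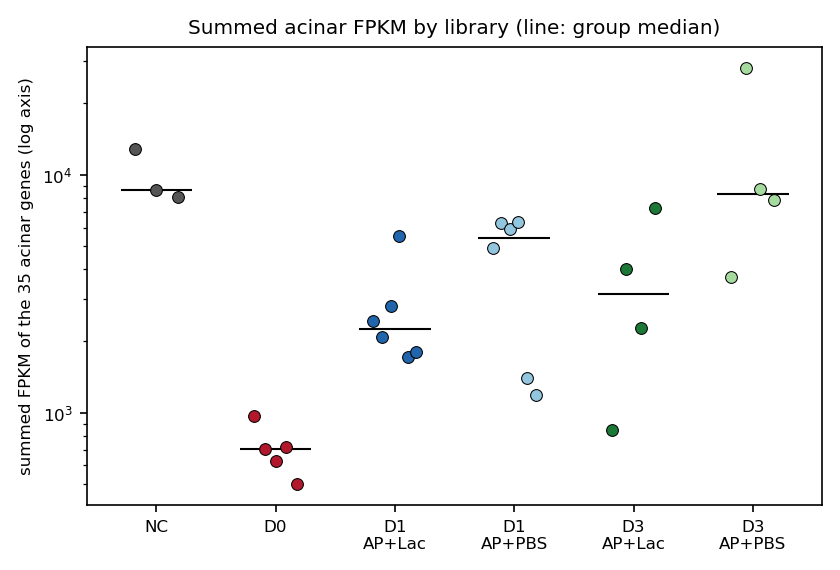
Summed FPKM of the 35 acinar genes in each of the 28 libraries by group, on a log axis; each dot is 1 library and the line is the group median. The 5 D0 libraries sit at 501 to 971 FPKM, below all others except 1 D3 AP+Lac library at 844, and 1 D3 AP+PBS library reaches 28137 FPKM.

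At D0 nearly the whole program was lower than in NC. Of the 34 genes tested on log2(FPKM + 1) with limma, 31 fell and 0 rose, where 41.4% of all 11960 genes tested fell and 19.7% rose. The median log2 fold change of the 34 was -3.58, against -0.22 over all genes. All 5 tested chymotrypsinogens and elastases fell, as did both carboxypeptidases, all 6 genes of lipid digestion, both genes of starch and RNA digestion, all 6 granule and secreted proteins, Spink1 and both endoplasmic reticulum proteins. Of 7 trypsinogens 5 fell, and of 3 transcription factors 2 fell.

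On the log2(FPKM + 1) scale the deepest fall was that of Rnase1, the pancreatic ribonuclease, with a log2 fold change of -5.94 (SE 0.65, limma adjusted p = 3.19e-08). Cel, the bile salt-dependent lipase, followed with -5.22 (SE 0.65, limma adjusted p = 2.66e-07). The smallest falls among called genes on that scale were those of Erp27, a non-catalytic disulfide isomerase relative of the endoplasmic reticulum, at -1.14 (SE 0.31, limma adjusted p = 2.75e-03), and of Rbpjl at -1.18 (SE 0.41, limma adjusted p = 1.70e-02). The scale understates the change of low genes. As ratios of mean FPKM, D0 over NC, Erp27 came to 0.122 and Rbpjl to 0.0466. By that ratio 3 abundant genes fell less, Try5 (0.265), Spink1 (0.24) and Ctrb1 (0.15). Their log2 fold changes were -1.90 (SE 0.68), -1.99 (SE 0.64) and -2.73 (SE 0.64), with limma adjusted p of 1.81e-02, 1.01e-02 and 7.91e-04. Prss1, Prss3 and Ptf1a did not pass, with log2 fold changes of -0.08, -0.87 and -0.32. Ptf1a is a low gene, with 0 to 0.0808 FPKM in D0 and 0.142 to 0.401 in NC, and its ratio of means was 0.112. In a fit of NC and D0 alone Prss3 and Ptf1a were called.

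Summed markers of other cell types moved too between D0 and NC. Fibroblast markers summed to 6.77 to 17.8 FPKM in D0 and 36.9 to 59 in NC, endothelial markers to 8.06 to 14.3 in D0 and 21.6 to 31.5 in NC, and B and plasma cell markers to 178 to 249 in D0 and 505 to 598 in NC. Neutrophil markers summed to 261 to 742 FPKM in D0 and 61.5 to 160 in NC, and duct markers to 9.22 to 20.6 in D0 and 7.89 to 9.3 in NC. Islet markers summed to 0.23 to 0.861 FPKM in D0 and 1.83 to 2.29 in NC. Of these, Iapp and Ppy were at 0 in all D0 libraries, and Ppy in all NC libraries. Macrophage markers summed to 11868 to 13154 FPKM in D0 and 15560 to 17129 in NC. With limma 1 of 7 fibroblast and 3 of 5 endothelial markers were called lower, where 41.4% of all genes were. Of 8 B and plasma cell markers 7 were called lower and 1 higher, and of 6 neutrophil markers 5 were called higher. Duct markers had 2 of 6 called higher and 1 lower, and macrophage markers 3 of 12 higher and 3 lower, where 19.7% of all genes were higher. The part of these markers in the fall was not tested.

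At day 1 with PBS the RNA of most of the acinar genes was higher than at D0. Against D0, 31 of 34 genes rose and 0 fell, where 43% of all genes tested rose and 19.8% fell, and the median log2 fold change was 1.97 for the members and 0.19 for all genes. On the log2(FPKM + 1) scale Rnase1 rose most, by 4.14 (SE 0.54, limma adjusted p = 5.46e-07), followed by Dmbt1, a secreted scavenger receptor protein, with 3.52 (SE 0.53, limma adjusted p = 4.34e-06). Ptf1a and Erp27 rose least among called genes on that scale, by 0.97 (SE 0.28) and 1.01 (SE 0.26), with limma adjusted p of 4.76e-03 and 1.50e-03. That scale understates the change of low genes. As ratios of mean FPKM, D1 AP+PBS over D0, Bhlha15 came to 66.6, Ptf1a to 34.3, Rnase1 to 29.1 and Erp27 to 7.61. The 3 genes that did not pass were Pnlip at 0.35 (SE 0.56), Pla2g1b, the secreted phospholipase A2 of pancreatic juice, at 0.53 (SE 0.49), and the elastase Cela1 at 0.79 (SE 0.53). This comparison uses the same D0 libraries as the one above. Other markers moved with it: with limma 7 of 7 fibroblast markers and 7 of 8 B and plasma cell markers were called higher in D1 AP+PBS than in D0, and 5 of 6 neutrophil markers lower. Fibroblast markers summed to 24.9 to 300 FPKM in D1 AP+PBS and 6.77 to 17.8 in D0, B and plasma cell markers to 288 to 1444 in D1 AP+PBS and 178 to 249 in D0, and neutrophil markers to 58.5 to 213 in D1 AP+PBS and 261 to 742 in D0. Their part in the rise was not tested.

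Set against NC, D1 AP+PBS libraries still had less of 16 of 34 genes and more of 0, where 9.18% of all genes tested fell and 5.29% rose. Pnlip was lowest, with a log2 fold change of -4.59 (SE 0.65, limma adjusted p = 1.38e-05), then Cela1 with -3.39 (SE 0.62, limma adjusted p = 3.82e-04). On the log2(FPKM + 1) scale the smallest called falls were those of Amy2b, an amylase gene, and Gp2, a granule membrane glycoprotein. They were -1.16 (SE 0.34) and -1.80 (SE 0.53), with limma adjusted p of 1.99e-02 and 2.05e-02. The others that fell were the trypsinogens Prss3b and Try4, Ctrl (chymotrypsin-like), Cela2a and Cela3b, Cpb1, Cel, Clps, Pla2g1b, Zg16, Sycn and Pdia2. Ctrb1 at -0.12 (SE 0.62), Try5 at 0.51 (SE 0.66) and Pnliprp1 at -0.28 (SE 0.56) were among the 18 that did not pass. The count was 9 without NC library 1, and no list of markers had more than 2 members called in this comparison.

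Between day 1 and day 3 with PBS, 19 of 34 genes rose and 0 fell, where 21.5% of all genes tested rose and 12.8% fell, and the median log2 fold change was 1.39 for the members and 0.10 for all genes. Pdia2, a disulfide isomerase made mainly in the pancreas, rose by 3.08 (SE 0.42, limma adjusted p = 2.32e-05) and Prss1 by 3.00 (SE 0.52, limma adjusted p = 2.30e-04). Erp27 and Amy2b rose least among called genes, by 0.85 (SE 0.27) and 0.98 (SE 0.31), with limma adjusted p of 1.86e-02 and 1.75e-02. By role, 5 of 7 trypsinogens, 3 of 5 chymotrypsinogens and elastases, 5 of 6 genes of lipid digestion, 1 of 2 carboxypeptidases, 1 of 2 genes of starch and RNA digestion, 2 of 6 granule and secreted proteins and both endoplasmic reticulum proteins rose, while Spink1 and the 3 transcription factors did not pass. Ctrb1 at 0.92 (SE 0.57) and Try5 at 1.20 (SE 0.60) did not pass. Without D3 AP+PBS library 2 the count was 11 and the members' median 0.88, and the calls of Amy2b, Cela1, Cela3b, Clps, Erp27, Pnliprp1, Prss3 and Try4 were lost. Macrophage markers moved the other way: with limma 10 of 12 were called lower in D3 AP+PBS than in D1 AP+PBS, with a median log2 fold change of -1.03, and they summed to 7654 to 11848 FPKM in D3 AP+PBS and 12802 to 20985 in D1 AP+PBS. Endothelial markers had 2 of 5 called higher and summed to 32.2 to 48.8 FPKM in D3 AP+PBS and 11.9 to 26.2 in D1 AP+PBS. The part of these markers in the rise was not tested.

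By day 3 with PBS most of the program was no longer called different from NC, which at this spread does not show that the levels were equal. Of 34 genes 3 were higher and 2 lower than in NC, where 10.3% of all genes tested were higher and 10.9% lower, and the median log2 fold change was 0.06 for the members and 0.09 for all genes. The higher ones were the trypsinogens Prss1 at 4.23 (SE 0.61, limma adjusted p = 2.05e-05), Prss3 at 3.35 (SE 0.68, limma adjusted p = 9.62e-04) and Try10 at 2.14 (SE 0.62, limma adjusted p = 1.69e-02). The lower ones were Pnlip at -2.09 (SE 0.71, limma adjusted p = 3.69e-02) and Cela1 at -1.87 (SE 0.67, limma adjusted p = 4.93e-02). Without D3 AP+PBS library 2, 2 genes were called higher and 4 lower, with Try10 lost and Pla2g1b and Sycn added, and the members' median was -0.46. Without D3 AP+PBS library 1, 8 were called higher and 0 lower, with Cela1 and Pnlip lost and Cuzd1, Erp27, Pnliprp1, Spink1 and Try5 added. The calls of Cela1 and Pnlip were both lost when any 1 of the 7 libraries except D3 AP+PBS library 2 was left out, and that of Try10 also without NC library 3. Among other markers 9 of 12 of the macrophage list were called lower in D3 AP+PBS than in NC and 4 of 7 of the fibroblast list higher, and their part was not tested. All 3 comparisons against NC share its 3 libraries.

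**Figure D2:**
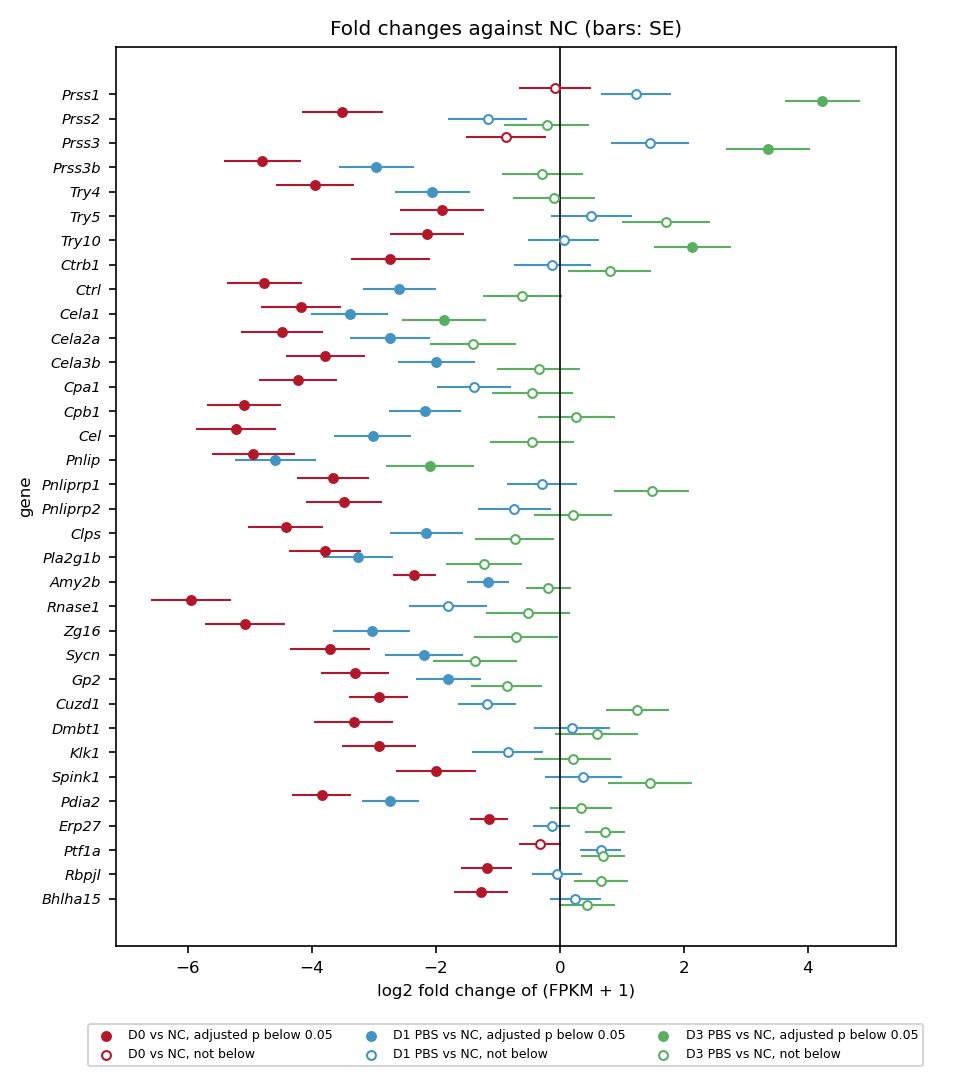
Log2 fold change against NC on the log2(FPKM + 1) scale for the 34 tested acinar genes at D0, D1 AP+PBS and D3 AP+PBS; bars are standard errors and filled points have a limma adjusted p below 0.05. Points at D0 reach -5.94 (Rnase1), Pnlip is still at -4.59 at day 1, and Prss1 stands at 4.23 at day 3.

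The trypsinogens, the precursors of the activating protease, summed to 2023 ± 500 FPKM in NC (SD, n = 3), 213 ± 53 in D0 (n = 5), 766 ± 415 in D1 AP+Lac (n = 6), 1279 ± 715 in D1 AP+PBS (n = 6), 1116 ± 850 in D3 AP+Lac (n = 4) and 3789 ± 3661 in D3 AP+PBS (n = 4). Without library 2 the D3 AP+PBS sum was 1992 ± 847 FPKM (n = 3). Try5, the most abundant of them on average over the 28 libraries though behind Prss2 and Try4 in NC, had 465, 269 and 346 FPKM in NC, 125, 100.5, 100.4, 85.8 and 64.9 in D0, a lowest, median and highest of 200, 291 and 803 in D1 AP+Lac and of 159, 824 and 945 in D1 AP+PBS, 111, 500.1, 316 and 967 in D3 AP+Lac, and 427, 4099, 1250.3 and 807 in D3 AP+PBS. For Try5 the D0 libraries lay below all others except D3 AP+Lac library 1, and the later groups all overlapped the NC range. Prss2 averaged 704 ± 170 FPKM in NC, 61.6 ± 16.3 in D0, 221 ± 126 in D1 AP+Lac, 384 ± 217 in D1 AP+PBS, 245 ± 184 in D3 AP+Lac and 821 ± 792 in D3 AP+PBS.

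Prss1 had its highest values at day 3. It had 0, 0.130 and 0.331 FPKM in NC, 0.153, 0.0308, 0, 0.152 and 0.0906 in D0, 0.281, 0.834 and 2.18 (lowest, median and highest) in D1 AP+Lac, 0.241, 1.66 and 3.74 in D1 AP+PBS, 1.41, 10.7, 7.26 and 15.6 in D3 AP+Lac, and 5.33, 50.8, 10.01 and 58.95 in D3 AP+PBS. In fragments these were 143, 1522, 291 and 1777 in D3 AP+PBS, against 0, 4 and 10 in NC. The D3 AP+PBS libraries were all above all NC and D1 AP+PBS libraries. Per 100 FPKM of Prss2, Prss1 came to 0.0262 ± 0.0299 in NC, 0.139 ± 0.109 in D0, 0.526 ± 0.405 in D1 AP+Lac, 0.569 ± 0.377 in D1 AP+PBS, 3.53 ± 0.825 in D3 AP+Lac and 5.02 ± 5.79 in D3 AP+PBS. The D3 AP+PBS mean was raised by library 4: the ratios were 2.275, 2.562, 1.57 and 13.683. Their median was 2.42, against 3.53 in D3 AP+Lac. Prss3 averaged 10.2 ± 3.96 FPKM in NC, 4.89 ± 1.1 in D0, 26.1 ± 9.44 in D1 AP+Lac, 35.2 ± 22.7 in D1 AP+PBS, 63.8 ± 51.7 in D3 AP+Lac and 141 ± 115 in D3 AP+PBS. Prss3b, by contrast, averaged 343 ± 81 FPKM in NC, 11.6 ± 3.29 in D0 and 384 ± 374 in D3 AP+PBS. Try4 averaged 599 ± 160 FPKM in NC, 38.6 ± 11.5 in D0, 170 ± 91.1 in D1 AP+PBS and 724 ± 673 in D3 AP+PBS, while Try10 averaged 7.11 ± 1.63 FPKM in NC, 0.847 ± 0.406 in D0, 8.68 ± 4.96 in D1 AP+PBS and 42 ± 34.6 in D3 AP+PBS. Without library 2 the D3 AP+PBS means were 434 FPKM for Prss2, 88.4 for Prss3, 199.97 for Prss3b, 391 for Try4 and 25 for Try10.

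The mouse trypsinogen genes lie in a cluster on chromosome 6 and several are near-identical copies, and the counting rule for fragments that match several copies is not given in the sources used here. Of the 50-base windows in its GENCODE vM21 transcripts, Prss1 shared 54.9% with other genes (Gm5771, Gm10334 and Prss3 above all), Prss3 66.1%, Try4 65.6%, Try5 47.6%, Try10 40.8% and Prss2 7.83%. Prss3b shared 0%. Values of single copies are therefore uncertain where windows are shared, and those of Prss3b are not touched by this.

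Of the gene models of the same cluster that are not among the 36, Gm2663 and 1810009J06Rik went the other way at D0. These results were singled out after their values were seen. Gm5771 at -0.53 (SE 0.72, limma adjusted p = 5.36e-01) and Gm10334 at 0.11 (SE 0.47, limma adjusted p = 8.48e-01) were not called at D0. Gm2663 had 849, 639, 622, 599 and 419 fragments in D0, against 1, 1 and 3 in NC, and 1810009J06Rik had 348, 357, 309, 376 and 221 in D0, against 0, 1 and 2 in NC. Both were called higher at D0, with log2 fold changes of 4.12 (SE 0.65, limma adjusted p = 9.10e-06) and 3.30 (SE 0.63, limma adjusted p = 1.02e-04), while 5 of 7 member trypsinogens fell. The deposited annotation gives both a serine-type endopeptidase activity. They share 83.5% and 81.5% of their windows, with each other.

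Gm2663 averaged 0.0512 ± 0.0354 FPKM in NC, 17.7 ± 4.39 in D0, 46.2 ± 23.5 in D1 AP+Lac, 76.6 ± 46.2 in D1 AP+PBS, 21.5 ± 16.7 in D3 AP+Lac and 76.6 ± 78 in D3 AP+PBS. It stayed called higher than NC in D1 AP+PBS (5.82, SE 0.63, limma adjusted p = 2.02e-07) and in D3 AP+PBS (5.68, SE 0.68, limma adjusted p = 1.53e-06). Another 2 models were higher late. At day 3 with PBS Gm5771 was higher than in NC by 4.90 (SE 0.75, limma adjusted p = 4.50e-05) and Gm10334 by 2.95 (SE 0.49, limma adjusted p = 1.28e-04), and both share windows with Prss1 and Prss3.

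Chymotrypsinogens and elastases differed in how far they lay below NC after D0. Ctrb1 had 1665, 1202.5 and 1093 FPKM in NC, 259.7, 203, 163.5, 214 and 152 in D0, a lowest, median and highest of 491, 701 and 1862 in D1 AP+Lac and of 409, 1790 and 2150 in D1 AP+PBS, 199.7, 989.7, 560 and 1824 in D3 AP+Lac, and 859, 6938, 2330.1 and 1893 in D3 AP+PBS. In D1 AP+PBS 4 of 6 libraries were above the NC median, while the highest D0 library was below the lowest NC library. The elastase Cela1 had 1028, 682 and 612 FPKM in NC, 55.2, 41.1, 37.5, 46.1 and 28.6 in D0, 37.8, 62.9 and 112 (lowest, median and highest) in D1 AP+Lac, 24.6, 106 and 140 in D1 AP+PBS, 16.1, 97.5, 39.4 and 191.5 in D3 AP+Lac, and 90.3, 637, 127 and 245 in D3 AP+PBS. Only D3 AP+PBS library 2 reached the NC range for Cela1. Cela2a and Cela3b, which encode further elastases, averaged 1197 ± 350 and 390 ± 87.5 FPKM in NC, 52.5 ± 13.5 and 27.9 ± 8.37 in D0, and 546 ± 431 and 400 ± 363 in D3 AP+PBS. Ctrl averaged 382 ± 106 FPKM in NC, 13.2 ± 4.17 in D0 and 314 ± 273 in D3 AP+PBS. Without library 2 the D3 AP+PBS means were 337 FPKM for Cela2a, 222 for Cela3b and 180.3 for Ctrl.

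The carboxypeptidases trim amino acids from the ends of peptides. Cpb1 had 731, 439 and 447 FPKM in NC, 18.5, 16.2, 13.3, 14.7 and 10.5 in D0, a lowest, median and highest of 58.6, 94.1 and 198 in D1 AP+Lac and of 41.1, 162 and 201 in D1 AP+PBS, 58.7, 268, 139.7 and 458 in D3 AP+Lac, and 258, 1882, 615 and 523 in D3 AP+PBS. All day 1 libraries lay between the D0 and the NC libraries without overlap. Cpa1 averaged 403 ± 115 FPKM in NC, 20.7 ± 5.84 in D0, 188 ± 108 in D1 AP+PBS and 363 ± 288 in D3 AP+PBS (226 ± 104 without library 2).

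Genes of fat digestion differed among themselves. Pnlip, the main triglyceride lipase, had 1233, 753 and 703 FPKM in NC, 43.0, 24.9, 25.9, 30.03 and 18.1 in D0, a lowest, median and highest of 15.7, 40.2 and 66.6 in D1 AP+Lac and of 10.6, 54.5 and 67.4 in D1 AP+PBS, 18.8, 112, 53.6 and 205 in D3 AP+Lac, and 95.1, 612, 143 and 203.5 in D3 AP+PBS. No library outside NC reached the lowest NC library, and the D0 and day 1 ranges overlapped. Pnliprp1, a lipase relative with little known activity on triglycerides, had 284, 169 and 161 FPKM in NC, 22.9, 12.8, 14.1, 15.3 and 11.1 in D0, 80.1, 101 and 290 (lowest, median and highest) in D1 AP+Lac, 59.7, 217 and 324 in D1 AP+PBS, 68.5, 243.5, 132 and 430.5 in D3 AP+Lac, and 242, 1450.5, 591 and 459 in D3 AP+PBS. For Pnliprp1 the day 1 libraries were all above the D0 libraries and spanned the NC range.

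The pair are neighbours on chromosome 19, with their promoter sequences given above. Pnlip came to 439 ± 6.11 FPKM per 100 of Pnliprp1 in NC, 185 ± 13.3 in D0, 30.4 ± 11.8 in D1 AP+Lac, 22.4 ± 7.18 in D1 AP+PBS, 40.4 ± 9.13 in D3 AP+Lac and 37.5 ± 9.09 in D3 AP+PBS. The ranges of NC, D0 and the later groups did not overlap, while the 4 later groups overlapped one another. The ratio was chosen after the values were seen and was not tested. Clps, the colipase that anchors Pnlip, averaged 488 ± 74.9 FPKM in NC, 22.9 ± 9.54 in D0, 129 ± 71.1 in D1 AP+PBS and 385 ± 351 in D3 AP+PBS. Pnliprp2, a lipase of broad substrate range, averaged 37 ± 8.99 FPKM in NC, 2.4 ± 0.682 in D0, 26 ± 14.5 in D1 AP+PBS and 55.7 ± 51.1 in D3 AP+PBS. Cel averaged 325 ± 112 FPKM in NC, 7.58 ± 1.78 in D0, 49.7 ± 30.5 in D1 AP+PBS and 284 ± 217 in D3 AP+PBS. Pla2g1b averaged 40.4 ± 9.94 FPKM in NC, 2 ± 0.639 in D0, 4.12 ± 2.8 in D1 AP+PBS and 22.6 ± 22.5 in D3 AP+PBS, so that with Pnlip it was among the genes farthest below NC at day 1. Without library 2 the D3 AP+PBS means were 214 FPKM for Clps, 30.7 for Pnliprp2, 180.4 for Cel and 11.6 for Pla2g1b.

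Among the remaining digestive enzymes, Rnase1 had 319, 217 and 193 FPKM in NC, 3.33, 2.20, 3.11, 3.32 and 2.56 in D0, a lowest, median and highest of 34.1, 50.4 and 123 in D1 AP+Lac and of 22.9, 103 and 127 in D1 AP+PBS, 12.8, 69.9, 37.1 and 120.4 in D3 AP+Lac, and 66.1, 544, 142 and 147 in D3 AP+PBS. The D0 libraries were below all others, and NC lay above every later library except D3 AP+PBS library 2. Amy2b was low throughout, averaging 4.74 ± 1.91 FPKM in NC, 0.0905 ± 0.0511 in D0, 1.59 ± 0.847 in D1 AP+PBS and 4.5 ± 3.49 in D3 AP+PBS (2.76 ± 0.392 without library 2), and it shares 40.2% of its windows with other amylase genes.

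The granule proteins, too, were on average lowest in D0. Zg16, a lectin of the zymogen granule, had 273.5, 190.5 and 182 FPKM in NC, 9.29, 5.82, 4.78, 4.08 and 3.79 in D0, a lowest, median and highest of 15.7, 22.5 and 45.4 in D1 AP+Lac and of 6.78, 38.7 and 50 in D1 AP+PBS, 8.13, 42.1, 27.97 and 75.5 in D3 AP+Lac, and 60.1, 443, 90.03 and 116 in D3 AP+PBS. All day 1 libraries were below all NC libraries. Spink1 had 41.3, 31.2 and 30.2 FPKM in NC, 12.0, 8.70, 5.34, 10.2 and 4.79 in D0, 20.7, 24.8 and 70.9 (lowest, median and highest) in D1 AP+Lac, 16.4, 65.5 and 83.6 in D1 AP+PBS, 6.45, 27.6, 26.5 and 60.6 in D3 AP+Lac, and 32.7, 351, 78.0 and 88.9 in D3 AP+PBS. Its D0 libraries were below all NC, day 1 and D3 AP+PBS libraries, and overlapped D3 AP+Lac library 1. Per 100 FPKM of summed trypsinogens, Spink1 came to 1.71 ± 0.107 in NC, 3.81 ± 0.896 in D0, 4.14 ± 0.324 in D1 AP+Lac, 4.3 ± 0.479 in D1 AP+PBS, 2.78 ± 0.567 in D3 AP+Lac and 3.46 ± 0.601 in D3 AP+PBS.

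Pdia2 had 31.0, 16.1 and 16.9 FPKM in NC, 0.767, 0.309, 0.721, 0.640 and 0.152 in D0, a lowest, median and highest of 0.67, 1.83 and 2.86 in D1 AP+Lac and of 0.606, 2.67 and 4.28 in D1 AP+PBS, 1.97, 8.10, 5.68 and 15.4 in D3 AP+Lac, and 12.95, 71.6, 23.1 and 21.55 in D3 AP+PBS. All D3 AP+PBS libraries lay above all day 1 libraries. Erp27 was low in all groups, averaging 1.65 ± 0.243 FPKM in NC, 0.202 ± 0.0532 in D0, 1.53 ± 0.817 in D1 AP+PBS and 3.92 ± 2.96 in D3 AP+PBS. Among the other secreted proteins Dmbt1 averaged 34.3 ± 13.7 FPKM in NC, 2.44 ± 0.746 in D0, 49 ± 31.6 in D1 AP+PBS and 67.2 ± 57.3 in D3 AP+PBS. Klk1, tissue kallikrein, averaged 78.5 ± 21.7 FPKM in NC, 9.5 ± 2.58 in D0, 50.2 ± 26.9 in D1 AP+PBS and 120 ± 114 in D3 AP+PBS. Cuzd1, a zymogen granule membrane protein, averaged 10.9 ± 3.68 FPKM in NC, 0.556 ± 0.322 in D0, 4.5 ± 1.99 in D1 AP+PBS and 35.8 ± 34.8 in D3 AP+PBS. Syncollin (Sycn) and Gp2 averaged 111 ± 26.2 and 50.4 ± 17.3 FPKM in NC, 7.77 ± 3.18 and 4.07 ± 0.692 in D0, and 55.6 ± 53.2 and 31.5 ± 21.7 in D3 AP+PBS. Without library 2 the D3 AP+PBS means were 2.5 FPKM for Erp27, 41.7 for Dmbt1, 63.4 for Klk1, 18.7 for Cuzd1, 29.3 for Sycn and 21.6 for Gp2.

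**Figure D3:**
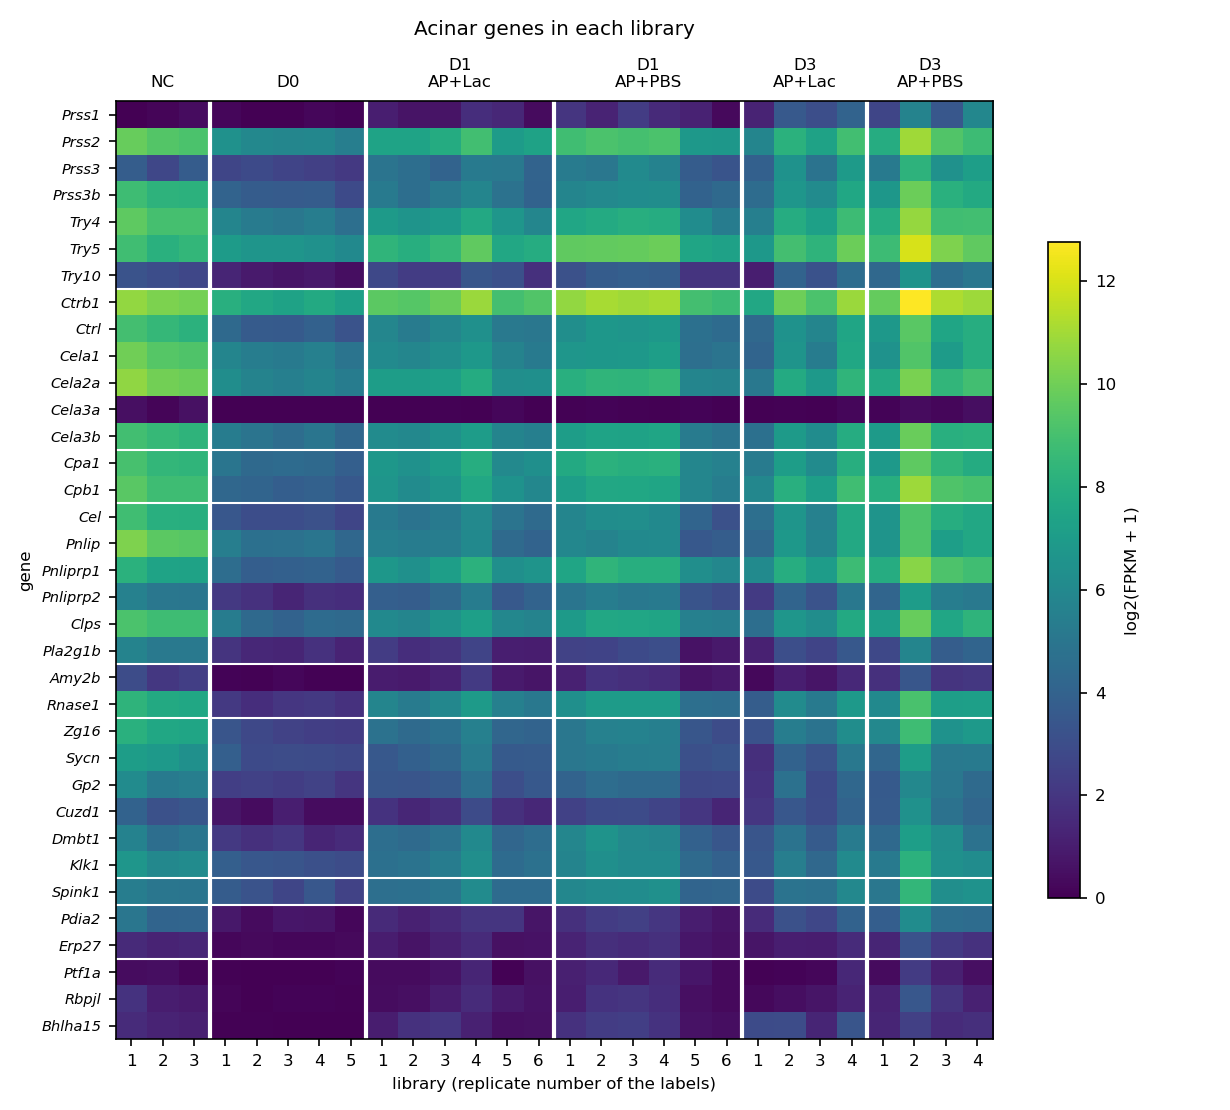
Level of the 35 acinar genes (rows, by role) in the 28 libraries (columns, by group) as log2(FPKM + 1). Low values are dark and high values bright. The D0 columns are the darkest block for nearly every row, and D3 AP+PBS library 2 is the brightest column, at 28137 FPKM in all.

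The make-up of the acinar RNA changed as well as its amount. Within a library each gene was taken as a share of the summed FPKM of the 35 genes, which removes the amount, and these shares are a description with no test. In NC 5 genes made up 49.7% of the sum on average: Ctrb1, Cela2a, Pnlip, Cela1 and Prss2. In D1 AP+PBS the top 5 made up 66.4% and were Ctrb1, Try5, Prss2, Cela2a and Pnliprp1.

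Ctrb1 took 13.5% ± 0.519 of acinar RNA in NC, 28.4% ± 1.89 in D0, 32% ± 2.17 in D1 AP+Lac, 33.9% ± 0.721 in D1 AP+PBS, 24.5% ± 0.585 in D3 AP+Lac and 24.7% ± 1.47 in D3 AP+PBS. Try5 took 3.68% ± 0.581 in NC, 13.7% ± 1.58 in D0, 13% ± 0.951 in D1 AP+Lac, 14.2% ± 1.28 in D1 AP+PBS, 13.2% ± 0.608 in D3 AP+Lac and 12.7% ± 2.1 in D3 AP+PBS. The NC libraries lay below all others for both genes. Pnlip took 9.03% ± 0.496 in NC, 3.99% ± 0.384 in D0, 1.41% ± 0.396 in D1 AP+Lac, 0.996% ± 0.173 in D1 AP+PBS, 2.55% ± 0.296 in D3 AP+Lac and 2.24% ± 0.447 in D3 AP+PBS, and NC lay above all others.

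Cela2a took 12.1% ± 0.301 of acinar RNA in NC, 7.48% ± 0.346 in D0 and 3.83% or more in every later library, with group means of 4.83% to 5.11%. Cela1 took 7.85% ± 0.221 in NC, 5.95% ± 0.307 in D0, 2.03% ± 0.299 in D1 AP+PBS and 2.32% ± 0.686 in D3 AP+PBS. Both elastases thus kept a smaller share at day 3 than in NC. Pnliprp1 took 2.06% ± 0.131 in NC, 2.16% ± 0.2 in D0, 4.64% ± 0.756 in D1 AP+PBS and 6.08% ± 0.725 in D3 AP+PBS. Rnase1 was lowest at D0, where it took 0.426% ± 0.0914, against 2.47% ± 0.0664 in NC and group means of 1.63% to 2.17% later.

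By role, trypsinogens made up 20.7% ± 0.686 of acinar RNA in NC, 30.3% ± 2.04 in D0, 29.2% ± 1.43 in D1 AP+PBS and 30.1% ± 2.27 in D3 AP+PBS. Within NC the shares were tight: over the 19 genes with a mean share above 1%, the median coefficient of variation was 5.47%, against 26.7% for the sum. In D3 AP+PBS these were 12.4% and 90.1%, and in D3 AP+Lac 10.6% and 76.9%. The highest coefficient among these 19 shares was 15.8% in NC (Try5), 24.5% in D3 AP+Lac (Spink1) and 29.6% in D3 AP+PBS (Cela1). In D0 it was 22.6% (Clps), close to the 24.5% of the sum there. Without library 2 the D3 AP+PBS shares averaged 24.7% for Ctrb1, 12% for Try5, 2.27% for Pnlip, 2.34% for Cela1 and 6.38% for Pnliprp1.

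**Figure D4:**
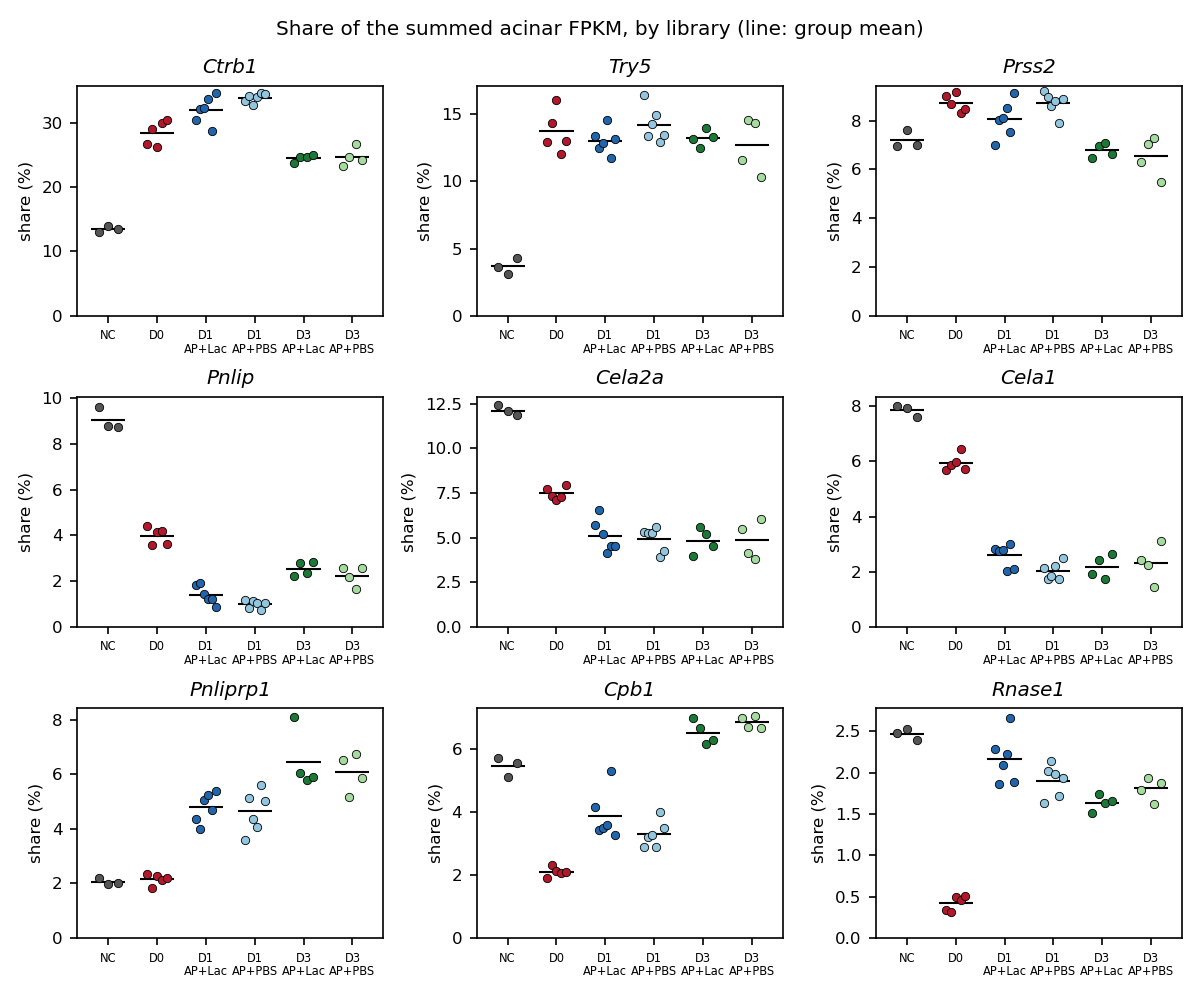
Share of 9 genes in the summed FPKM of the 35 acinar genes, in percent, for each library (dots) by group; the line is the group mean. Ctrb1 and Try5 are lowest in NC (13.5% and 3.68%), and Pnlip, Cela2a and Cela1 are highest there (9.03%, 12.1% and 7.85%).

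The effect of lactate was asked by setting AP+Lac against AP+PBS within each day. At day 1, 0 of 34 genes passed in either direction with limma, and 0 had an unadjusted p below 0.05, against 25.3% of all genes tested, where 5.16% of all genes tested were called higher and 4.56% lower. All 34 point estimates were negative, with a median log2 fold change of -0.39, against 0.02 over all genes, and ran from -0.63 (SE 0.53) for Try5 to -0.04 (SE 0.53) for Pnlip. The shared sign is not 34 independent results, since the members largely varied together with the acinar sum. That sum had a coefficient of variation of 52.6% in D1 AP+Lac and 55.7% in D1 AP+PBS. For the 19 shares above 1% the median coefficient was 12.2% and 12.6%. For Ctrb1 the estimate was -0.59 (SE 0.51).

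Within D1 AP+PBS the 4 libraries with much acinar RNA (4919 to 6336 FPKM) had duct markers of 38.1 to 48 FPKM and fibroblast markers of 154 to 300, against 12 and 8.6, and 24.9 and 31.8, in libraries 5 and 6. D1 AP+Lac library 4 had the highest duct (35.8), fibroblast (409) and endothelial (52) sums of its group. D1 AP+Lac libraries 5 and 6 had the lowest acinar sums (1712 and 1800 FPKM) and fibroblast sums (28.6 and 40.1) of that group. Their duct sums, 8.66 and 16.8 FPKM, overlapped those of the other libraries. Libraries 5 and 6 were thus low in acinar and fibroblast RNA in both day 1 groups. Whether these markers play a part in the spread of acinar RNA at day 1 was not tested.

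At day 3, 0 of 34 genes passed with limma and 32 had an unadjusted p below 0.05, against 17.9% of all genes tested, where 0.192% of all genes were called higher and 0.184% lower. These 32 are not independent results, since the members largely varied together with the acinar sum. That sum had a coefficient of variation of 76.9% in D3 AP+Lac and 90.1% in D3 AP+PBS. For the 19 shares above 1% the median coefficient was 10.6% and 12.4%. The median log2 fold change of lactate against PBS was -1.69 for the members and 0.02 for all genes. Without D3 AP+PBS library 2, 0 were called, 17 of 34 had an unadjusted p below 0.05, against 13.4% of all genes tested, and the members' median was -1.20. Zg16 had the most negative estimate, -2.09 (SE 0.62, limma adjusted p = 1.11e-01), followed by Spink1 with -1.97 (SE 0.62, limma adjusted p = 1.23e-01). The smallest adjusted p were those of Amy2b at -1.40 (SE 0.34, limma adjusted p = 5.83e-02) and Pdia2 at -1.88 (SE 0.46, limma adjusted p = 6.19e-02). Amy2b had 0.224, 1.105, 0.634 and 1.73 FPKM in D3 AP+Lac, against 2.38, 9.70, 2.73 and 3.16 in D3 AP+PBS. Its groups did not overlap, while those of the other 34 measured members did. How often the groups lie apart over all genes was not counted. With another scaling (quantile) Amy2b, Cuzd1, Erp27 and Pdia2 were called lower.

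Summed acinar RNA was 844, 4021, 2273 and 7279 FPKM in D3 AP+Lac, against 3703, 28137, 8738.5 and 7845 in D3 AP+PBS, so the groups overlapped. The difference between the lactate effects at day 3 and day 1 was called for 0 of 34 genes with limma, and 5 had an unadjusted p below 0.05, against 27.4% of all genes tested, where 5.94% of all genes tested were called lower and 4.76% higher. Amy2b came nearest, at -1.25 (SE 0.44, limma adjusted p = 6.38e-02), and the median of the members was -1.28, against 0.01 over all genes. Without D3 AP+PBS library 2 that median was -0.76 and 3 genes had an unadjusted p below 0.05.

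**Figure D5:**
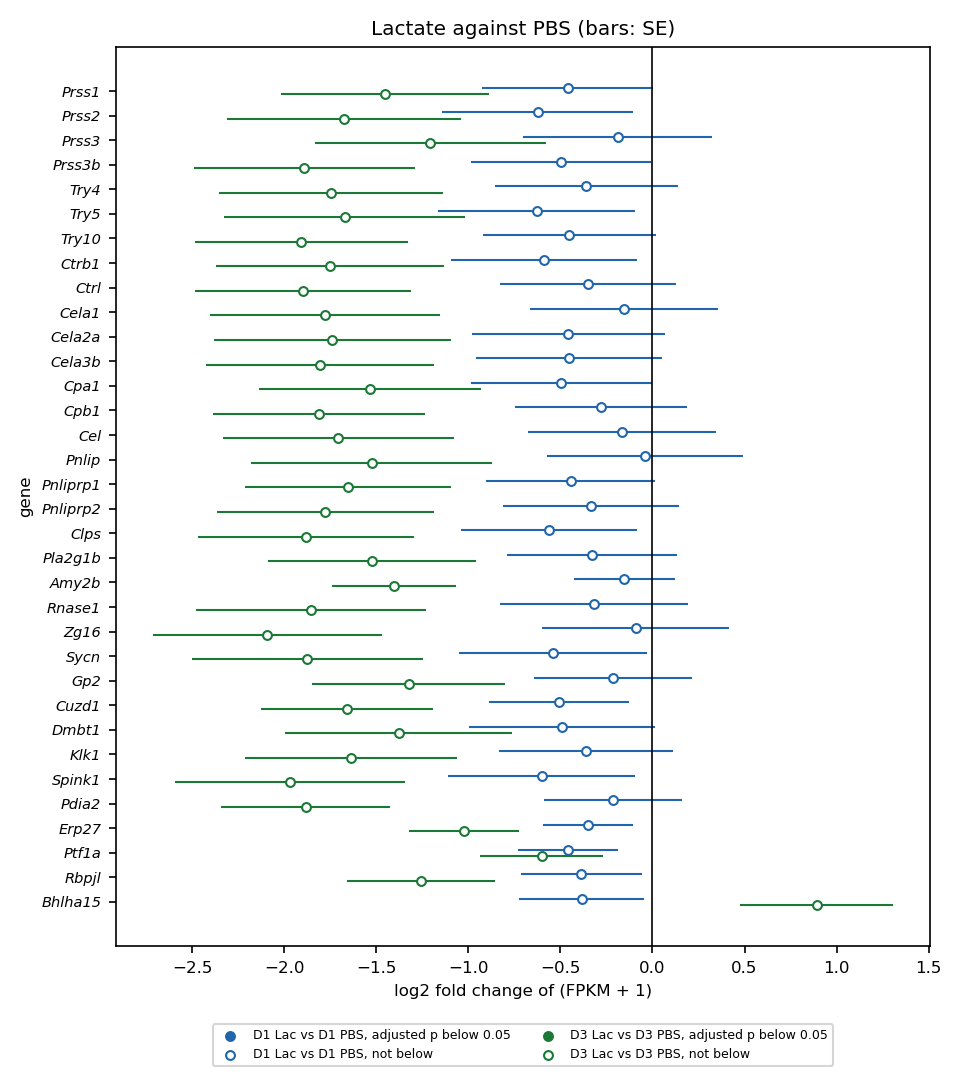
Log2 fold change of AP+Lac against AP+PBS at day 1 (blue) and day 3 (green) for the 34 tested acinar genes on the log2(FPKM + 1) scale; bars are standard errors and no point is filled, since 0 genes had a limma adjusted p below 0.05. Day 1 estimates lie between -0.63 and -0.04, and at day 3 Zg16 is lowest at -2.09 and Bhlha15 alone is above 0, at 0.89.

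The transcription factors had low levels. Over the 28 libraries Ptf1a had 0 to 206 fragments, Rbpjl 1 to 1001 and Bhlha15 1 to 1208. Ptf1a had 0.326, 0.401 and 0.142 FPKM in NC, 0.0654, 0, 0.0163, 0 and 0.0808 in D0, a lowest, median and highest of 0.053, 0.387 and 1.52 in D1 AP+Lac and of 0.258, 1.01 and 1.93 in D1 AP+PBS, 0.0525, 0.0892, 0.162 and 1.65 in D3 AP+Lac, and 0.299, 3.68, 1.14 and 0.444 in D3 AP+PBS. The highest value was that of D3 AP+PBS library 2. Rbpjl had 2.72, 1.03 and 0.892 FPKM in NC, 0.130, 0.00932, 0.0828, 0.0831 and 0.0549 in D0, 0.348, 0.734 and 1.95 (lowest, median and highest) in D1 AP+Lac, 0.247, 1.65 and 2.85 in D1 AP+PBS, 0.218, 0.404, 0.642 and 1.39 in D3 AP+Lac, and 1.31, 10.12, 2.80 and 1.25 in D3 AP+PBS. For Rbpjl the D0 libraries were below all others, for Ptf1a they overlapped those of D1 AP+Lac and D3 AP+Lac, and for both genes the later groups overlapped NC.

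Bhlha15 had 2.02, 1.38 and 1.18 FPKM in NC, 0.0565, 0.0710, 0.00702, 0.0141 and 0.0279 in D0, a lowest, median and highest of 0.45, 1.13 and 3.04 in D1 AP+Lac and of 0.404, 2.62 and 4.2 in D1 AP+PBS, 6.67, 6.91, 1.52 and 9.17 in D3 AP+Lac, and 1.47, 4.31, 1.995 and 2.35 in D3 AP+PBS. It was the 1 gene of 34 with a positive day 3 estimate for lactate, 0.89 (SE 0.42, limma adjusted p = 2.59e-01), which did not pass. Of 4 D3 AP+Lac libraries 3 were above every D3 AP+PBS library. Bhlha15 is also expressed in plasma cells, and B and plasma cell markers summed to 1730, 2252, 912 and 2560 FPKM in D3 AP+Lac, against 662, 1014, 998 and 641 in D3 AP+PBS. Jchain, which joins secreted antibody chains, averaged 811 ± 420 FPKM in D3 AP+Lac, against 108 ± 84.4 in D3 AP+PBS. The part of these cells in the Bhlha15 values was not tested.

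A second list of 30 acinar genes, of which 27 were measured and 22 tested, was read in the same way. At D0 15 of the 22 fell and 2 rose against NC, where 41.4% of all genes fell and 19.7% rose, and the median log2 fold change was -1.22. Among those with the smallest p were Tff2, a trefoil peptide, at -4.59 (SE 0.49, limma adjusted p = 2.10e-08), the amylase Amy2a1 at -4.52 (SE 0.59, limma adjusted p = 6.37e-07) and Serpini2, a pancreatic serpin, at -3.27 (SE 0.46, limma adjusted p = 1.74e-06). In D1 AP+PBS against D0 14 of 22 rose and 2 fell, where 43% of all genes rose and 19.8% fell, led by Reg1, a secreted regenerating protein, at 3.02 (SE 0.49, limma adjusted p = 1.08e-05). Against NC the D1 AP+PBS libraries had 9 of 22 lower and 3 higher, where 9.18% of all genes were lower and 5.29% higher. The D3 AP+PBS libraries had 2 lower and 4 higher than NC, where 10.9% of all genes were lower and 10.3% higher, and 5 lower and 4 higher without library 2. The 4 with the smallest p were the gene models Gm2663, 1810009J06Rik, Gm5771 and Gm10334. From day 1 to day 3 with PBS 14 of 22 rose and 0 fell, where 21.5% of all genes rose and 12.8% fell, and 10 rose without D3 AP+PBS library 2. For lactate 0 of 22 were called with limma at day 1 and at day 3. An unadjusted p below 0.05 was held by 0 of 22 at day 1, against 25.3% of all genes, and by 18 of 22 at day 3, against 17.9% of all genes, or 12 without D3 AP+PBS library 2. Some of these genes, such as Amy2a1, followed the course of the members, so these counts are not independent results either. The difference between days was called for Cldn10 alone, a claudin, at -0.52 (SE 0.17, limma adjusted p = 4.80e-02), a call lost without D3 AP+PBS library 2.

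Likeness to the members was measured as the SD over the 28 libraries of a gene's log2(FPKM + 1) minus the median of the 34 members, so that a small SD means a shared course. Members closest to the median were Cela3b (0.235), Try4 (0.237) and Ctrl (0.248), and the farthest were Prss1 (1.473), Ptf1a (1.288), Bhlha15 (1.232) and Prss3 (1.219). A large SD need not mean another course, since this scale understates the change of low genes. Ptf1a averaged 0.658 FPKM and Bhlha15 2.22 over the 28 libraries. Outside the members, among genes with a mean of at least 5 FPKM, the nearest included Amy2a1 (0.22), Tff2 (0.623), Reg1 (0.644) and Reg3d (0.681). They were followed by Ephx1 (0.843), Fgfr1 (0.875), H2-Eb1 (0.886), Serpinf1 (0.899) and ND6 (0.91). H2-Eb1, an antigen presentation gene, had 199 ± 43.1 FPKM in D0, against 2977 ± 342 in NC.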

How the data were processed

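Expression was deposited by the authors as FPKM, 1 value per gene and library, in a single table of 28 libraries. The input was 10 ng of total RNA, per the labels' protocols. Per the submitters' processing notes, fastp and R 3.2.0 were used. The aligner, the counter and the build, not given in the sources used here, could shift the values of near-identical copies. All FPKM were whole multiples of what 1 fragment is worth (100% of values, tolerance 0.0001), which gave 33273303 to 41060490 fragments per library. No 2 libraries of a group were alike within sampling noise (lowest chi-square per degree of freedom 24.5 over 55 pairs).

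Tests used log2(FPKM + 1), a scale that understates the change of low genes, in limma 3.58.1 (R 4.3.3) with 1 mean per group, all 28 libraries sharing the spread, and trended, robust moderation. P-values are two-sided, adjusted by Benjamini-Hochberg over 11960 genes, threshold 0.05. The fit was tested on simulated data. Groups and replicate numbers come from the titles. The main fit does not pair libraries by number: over all groups, 59 same-number pairs had a median correlation of -0.02. A pairing within day 1 was not tested.

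The members, lists and tests were chosen with earlier results of these data known. Named are, per comparison, the 2 called members with the highest and the 2 with the lowest log2 fold change, the most abundant member of each role in every library, the transcription factors, and from the second acinar list up to 4 genes with the smallest p; Prss1, Pnlip and Cela1 are given by library because of their values. A result that meets these rules is not reported here. Alternatives were a pseudocount of 0.1, no filter or one at 5 FPKM, median-ratio and quantile scaling, rescaling to genes outside the members, a replicate block, a fit of the compared groups alone and leaving out each library. Python 3.11.15, numpy 2.4.6, pandas 2.3.3 and matplotlib 3.10.9 were used.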

Additional observations from a re-analysis of the deposited data

Results flagged for a closer look

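Among 75 groups of 4 or more libraries checked (14 members and the summed acinar RNA), 12 held a library far from the others by Dixon's criterion, which chance alone does for about 1 group in 20. The same libraries recur, so the 12 are not independent.

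In D1 AP+Lac library 4 the summed acinar RNA was 5524 FPKM, against 1712 to 2806 in the other 5 libraries. In that library Try5 had 803 FPKM (200 to 359 in the others), Ctrb1 1862 (491 to 904), Cpb1 198 (58.6 to 100), Pnliprp1 290 (80.1 to 142), Rnase1 123 (34.1 to 58.7), Zg16 45.4 (15.7 to 26.6), Spink1 70.9 (20.7 to 30.3) and Ptf1a 1.52 (0.053 to 0.555). With it left out, 0 members were called for lactate at day 1, as with it.

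In D3 AP+PBS library 2 Rnase1 had 544 FPKM, against 66.1 to 147 in the other 3 libraries, and Zg16 443, against 60.1 to 116. In D3 AP+Lac library 4 Ptf1a had 1.65 FPKM, against 0.0525 to 0.162 in the other 3. No cause of these values was tested.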

How the results depend on the processing

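The fall at D0 against NC (28 to 33 members over all settings), the rise in D1 AP+PBS against D0 (27 to 31) and the 0 calls for lactate at day 1 kept their direction and stayed within 1.5 times under every alternative run. For D1 AP+PBS against NC, leaving out 1 library gave 9 to 17 members, for D3 AP+PBS against D1 AP+PBS 11 to 21, for D3 AP+PBS against NC 2 to 8, for lactate at day 3 0 to 1, and for the difference between its effects 0 to 2. D3 AP+PBS against NC gave 3 members with no filter, where Cela1 and Pnlip were lost, 6 without D3 AP+PBS library 2, with more lower (4) than higher (2), and 8, all higher, without D3 AP+PBS library 1. Its calls of Cela1 and Pnlip were lost when any 1 of the 3 NC libraries or of D3 AP+PBS libraries 1, 3 and 4 was left out. For lactate at day 3, 2 members were called under median-ratio scaling and 4 under quantile scaling, and for the difference between its effects 1 under quantile scaling. The cause of these shifts was not tested.

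With the replicate number as a block, D0 against NC gave 31 members, D1 AP+PBS against D0 31, D1 AP+PBS against NC 16, D3 AP+PBS against D1 AP+PBS 15, D3 AP+PBS against NC 6, lactate at day 1 0, lactate at day 3 2 (Amy2b and Pdia2) and the difference between its effects 1 (Amy2b). Over all groups, same-number correlations ran from -0.57 to 0.61, a pooled measure that cannot settle a pairing within 1 day. B and plasma cell markers summed to 709, 1187, 1381, 698, 291 and 255 FPKM in D1 AP+Lac libraries 1 to 6. In D1 AP+PBS libraries 1 to 6 they summed to 695, 1205, 1444, 704, 433 and 288 FPKM. Whether the numbers pair libraries within day 1 was not tested.

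Median-ratio scaling moved the median of all genes by 0.25 on the log2 scale for D0 against NC, -0.22 for D1 AP+PBS against D0 and -0.11 for D3 AP+PBS against D1 AP+PBS; the members' medians became -3.31, 1.72 and 1.25. Depth limits Ptf1a (0 to 206 fragments), Cela3a, and Prss1 in NC and D0.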
